A study of Homo sapiens with 36 samples.

Results

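Platinum-resistant A2780 cells were compared with their platinum-sensitive parental cells while both grew without serine and glycine, over all genes measured by RNA sequencing. A2780 is a human ovarian cancer cell line. The sensitive line is called wt, and the resistant line, called cis, had been raised from the parental cells by long exposure to cisplatin, so every value for resistant cells comes from 1 derived line. The comparison takes 6 of the 36 libraries of the series: 3 of sensitive cells without serine and glycine (wt -SG) and 3 of resistant cells in the same medium (cis -SG). Both groups grew in a medium mixed without serine and glycine, with dialyzed serum, and neither received carboplatin. The 6 libraries of the same lines in complete medium, again without carboplatin (wt and cis), were used beside them. For deprivation experiments the study describes the same mix with dialyzed serum both with and without these amino acids. Whether the complete medium of these 6 libraries was that mix or the routine medium is not stated. An effect of serine and glycine therefore cannot be told apart from one of serum or base medium. The study describes the 3 libraries of each condition as technical replicates. Standard deviations (SD) and p-values here measure the spread between these libraries and not between independent cultures.

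Total counts on genes were 15362999 to 20441582 in the wt -SG libraries and 18106974 to 18653653 in the cis -SG libraries. Levels are given as CPM, counts scaled by library size to a common total, scaled over all 36 libraries, and differences as log2 fold changes of cis over wt by edgeR's quasi-likelihood F-test with p-values adjusted by the Benjamini-Hochberg method, positive where cis was higher. A gene was called at an adjusted p-value under 0.05. Mitochondrially encoded genes took 3.75% to 6.31% of the counts in wt -SG and 4.72% to 6.20% in cis -SG, and pairs of libraries within a group differed by more than counting noise, with a mean chi-square per gene of 1.69 to 12.3. Markers of the tissue of origin were sparse in both lines. PAX8, the lineage factor of most ovarian carcinomas, and KRT7 and MUC16 were at or near 0. The summed CPM of the 13 ovarian epithelial markers was 15.1 to 16.3 in wt -SG and 50.1 to 52.5 in cis -SG, mostly from KRT18 in cis -SG. The leukocyte markers summed to at most 0.708 CPM and the endothelial markers to at most 0.366 CPM in any of the 6 libraries. The 8 fibroblast markers summed to 2197 to 2252 CPM in wt -SG and 779 to 801 CPM in cis -SG, and COL3A1 made up most of the sum. Of the others, DCN, LUM and FAP were near 0 in both. COL1A2, PDGFRA and PDGFRB were lower in cis -SG, COL1A2 with a mean of 421 CPM in wt -SG and 0.0513 CPM in cis -SG.

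Serine is made from glucose in the cytosol by 3 enzymes. PHGDH draws carbon away from glycolysis in a step that uses NAD+, PSAT1 adds the amino group, and PSPH removes the phosphate. Serine and glycine supply glutathione, sphingolipids, proteins and the one-carbon units that go into nucleotides and methylation. When amino acids are short, phosphorylation of the translation factor eIF2 favours translation of the transcription factor ATF4, which raises genes of amino acid synthesis, amino acid transport and stress signalling. The comparison addresses how cells with low serine synthesis differ from their parents once the outside supply is gone.

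Most genes differed between the lines in this medium. Of 14939 genes tested, 12116 were called (81.1%), 6101 of them higher in cis -SG (40.8%) and 6015 lower (40.3%), and the median over all genes was 0.00. Because the libraries within a group are so alike, a called gene can differ by little, and a difference of at least 2-fold was held by 2254 genes in the higher direction (15.1%) and 2361 in the lower (15.8%). In complete medium 39.4% of the 14431 genes tested were called higher and 39.1% lower in cis, and 3549 were called at 2-fold or more. The same direction at 2-fold or more in both media was seen for 2682 genes, which are 58.1% of those without serine and glycine and 75.6% of those in complete medium, and 24 genes had opposite directions. The comparisons in the 2 media share no library. Exons of 113 of the 252 genes covered by the naming rule overlap another annotated gene, and the strand setting of the counting is not given in the sources used here, so levels of genes such as NMNAT2, PC, QPRT, INHBE, BCL2L11, NUPR1 and LGR4 are less certain.

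Whether the difference between the lines depended on the medium was tested by an interaction term over the 12 libraries, the cis over wt difference without serine and glycine minus that in complete medium. Of 15418 genes, 27.1% were called with a higher and 26.9% with a lower cis over wt ratio without serine and glycine. At 2-fold or more, the higher direction held 1269 genes (8.23%) and the lower 536 (3.48%). Of the 4615 genes that differed by at least 2-fold without serine and glycine, 2379 (51.5%) had a called interaction and 1134 (24.6%) one of at least 2-fold. Lists of genes are described below by their counts against these shares, and by their medians against the medians of all genes, which were 0.00 in each medium and 0.02 for the interaction.

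**Figure D1:**
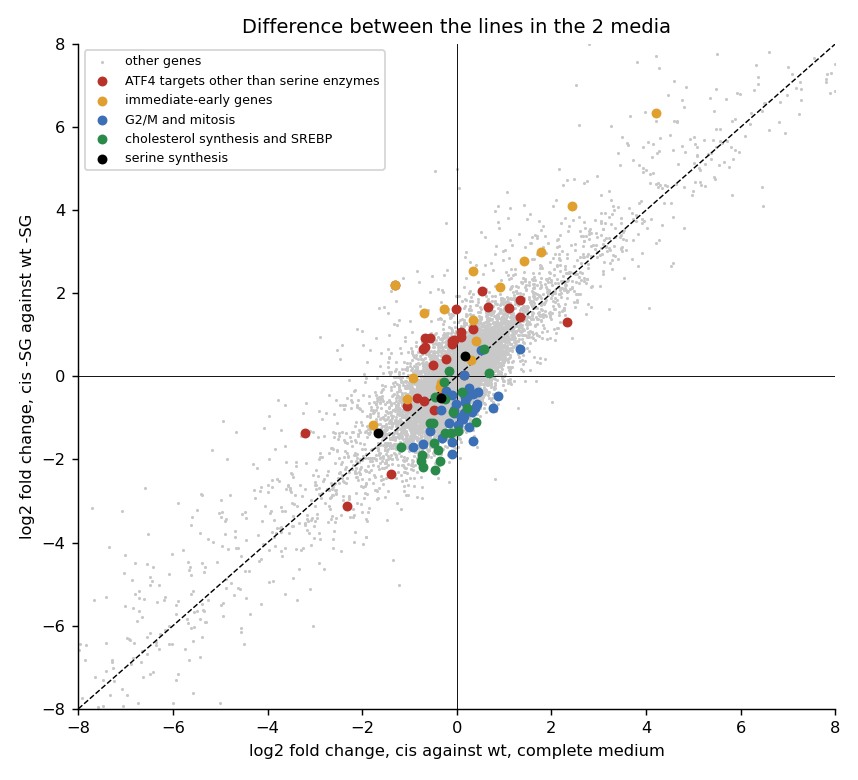
Log2 fold change of cis over wt in complete medium (horizontal axis) and without serine and glycine (vertical axis) for 11716 genes with a mean of at least 50 counts, 1 point per gene, with 5 gene lists in colour and a dashed line where both media would give the same value. ATF4 targets and immediate-early genes lie mostly above the dashed line and G2/M and cholesterol genes mostly below it, and 215 genes lie outside the axes, which end at 8.

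The serine synthesis enzymes moved in different directions, and the resistant cells kept less PHGDH and PSAT1 mRNA. PHGDH was 524, 536 and 532 CPM in the 3 wt -SG libraries and 197, 201 and 204 CPM in the cis -SG libraries. The groups lay far apart relative to their spread, with a log2 fold change of -1.36 (SE 0.0264, adjusted p = 1.71e-20). In complete medium the means were 471 CPM in wt and 151 CPM in cis, and the interaction was 0.32 (SE 0.0383, adjusted p = 5.74e-09), so the gap was a little narrower without serine and glycine. PSAT1 was 1063, 1087 and 1069 CPM in wt -SG and 729, 730 and 706 CPM in cis -SG, a log2 fold change of -0.53 (SE 0.0228, adjusted p = 1.22e-14). PSPH went the other way, with 77, 78.3 and 78.5 CPM in wt -SG against 107, 108 and 106 CPM in cis -SG and a log2 fold change of 0.50 (SE 0.0342, adjusted p = 2.46e-11). PHGDH lies on chromosome 1, in a stretch where most genes were lower in the resistant cells (described at the end).

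Transporters that can bring serine or other neutral amino acids into the cell or its organelles were measured alongside. Of 16 tested, 10 were called higher and 6 lower in cis -SG. SLC1A4, which carries serine, alanine and cysteine across the plasma membrane, was 53.3, 48.9 and 45.6 CPM in wt -SG and 163, 165 and 170 CPM in cis -SG. Its log2 fold change was 1.79 (SE 0.0449, adjusted p = 3.60e-17), and in complete medium it was 1.86, without a called interaction (-0.06, adjusted p = 0.456). SLC1A5, the glutamine and neutral amino acid carrier, differed little without serine and glycine, with 424 to 434 CPM in wt -SG and 432 to 445 CPM in cis -SG, and its call at a log2 fold change of 0.08 (adjusted p = 0.0084) was lost under several alternatives. The mitochondrial sideroflexin SFXN3 was higher in cis -SG (2.47) and SFXN2 lower (-0.82). SLC7A11, the cystine importer that feeds glutathione synthesis, was higher (1.42). SLC38A4, another neutral amino acid carrier, stood out in the lower direction. It was 17 to 17.8 CPM in wt -SG and 2.34 to 2.92 CPM in cis -SG, a log2 fold change of -2.63 (SE 0.105) with an interaction of -1.71 (SE 0.169, adjusted p = 5.20e-11).

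**Figure D2:**
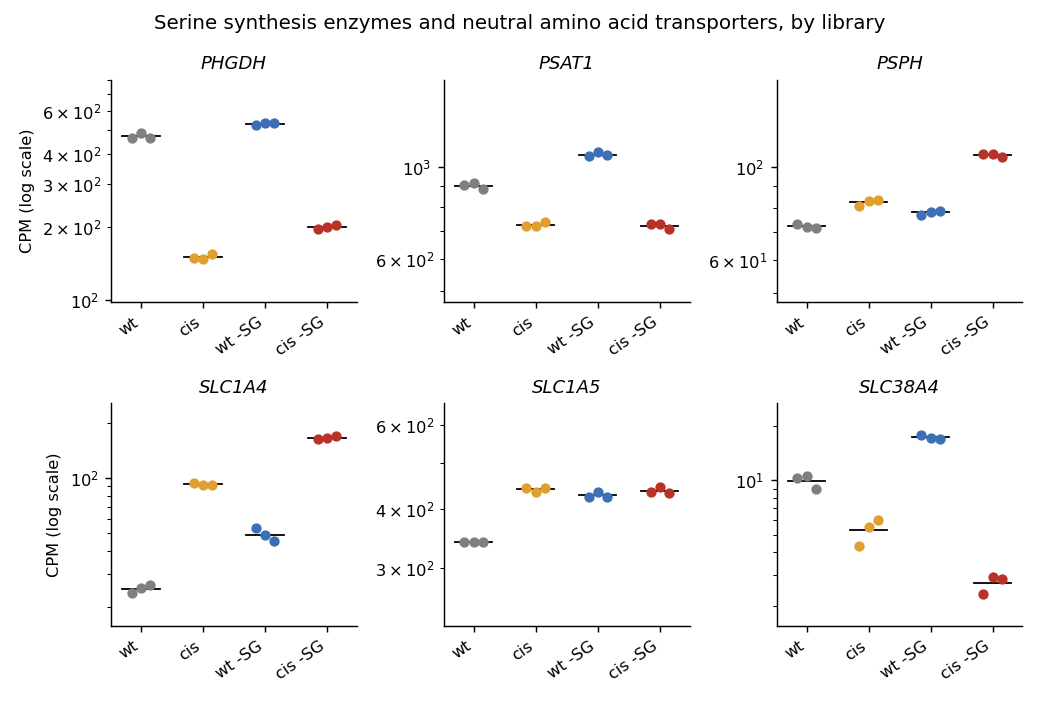
CPM on a log axis of PHGDH, PSAT1, PSPH, SLC1A4, SLC1A5 and SLC38A4 in the 3 libraries of wt, cis, wt -SG and cis -SG (points), with the mean of each group as a line. PHGDH and PSAT1 are lower and SLC1A4 is higher in resistant cells in both media, and SLC38A4 has its widest gap without serine and glycine.

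Genes that ATF4 activates, leaving out the serine enzymes, were mostly higher in the resistant cells once serine and glycine were absent, and not in complete medium. Without serine and glycine 20 of 29 were called higher and 8 lower in cis -SG, with a median of 0.84, whereas in complete medium 10 were higher and 17 lower, with a median of -0.22. The interaction was called higher for 22 of the 29 and lower for 3, with a median of 0.81. The mRNA of ATF4 itself hardly differed, at 491 to 505 CPM in wt -SG and 505 to 513 CPM in cis -SG (0.08, adjusted p = 0.00533, a call lost under some alternatives), beside an interaction of 0.42 (SE 0.0331). ATF4 is regulated mainly through translation, which mRNA counts do not measure.

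ATF3, a stress-induced partner and target of ATF4, was 17.8, 16.8 and 15.4 CPM in wt -SG and 74.9, 73.1 and 74.1 CPM in cis -SG. Its order was turned around between media, since the means in complete medium were 21.5 CPM in wt and 8.81 CPM in cis. The log2 fold change without serine and glycine was 2.19 (SE 0.0520, adjusted p = 4.97e-19) and the interaction 3.51 (SE 0.0909, adjusted p = 1.68e-27). PPP1R15A, which directs the phosphatase that reverses eIF2 phosphorylation, was 34.8, 35.9 and 37.2 CPM in wt -SG and 146, 148 and 142 CPM in cis -SG (2.06, interaction 1.55). TRIB3, a pseudokinase induced by ATF4 that dampens its activity, was higher as well, with means of 145 ± 4.61 CPM and 500 ± 9.65 CPM (SD, n = 3 each) and a log2 fold change of 1.83.

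Other ATF4 targets went against the list. FGF21, a secreted stress hormone, was 10.9, 12 and 11.4 CPM in wt -SG and 1.63, 1.25 and 0.914 CPM in cis -SG (-3.12, SE 0.149), and its interaction was not called (-0.78, adjusted p = 0.145). INHBE, which encodes an activin subunit, was also lower (-2.34). NUPR1, a stress-inducible chromatin protein, was 105 to 107 CPM in wt -SG and 39.4 to 40.4 CPM in cis -SG (-1.36), but the gap was wider in complete medium (-3.21), so its interaction was positive (1.85, SE 0.0881). The members of this list therefore did not share 1 direction.

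The core of the amino acid response element, TGATGNAA, to which ATF4 with a C/EBP partner can bind, was searched on both strands in the 250 bases before each RefSeq start site (build GRCh38.p14). It was found for 6 of the 25 ATF4 targets with a promoter in the table (24%) and for 1061 of all 27305 genes (3.89%). The windows of the targets highest and lowest by the named-gene rule in cis -SG that hold it are shown, with the core in capitals. The ATF3 window (chr1:212565157-212565406, plus strand) belongs to 1 of 2 listed starts, with the core beginning 191 bases before the start. The FGF21 window (chr19:48755274-48755523, plus strand) holds the core on the opposite strand, 54 bases before the start. So both a higher and a lower target hold these letters, and a match describes the letters only.
ATF3: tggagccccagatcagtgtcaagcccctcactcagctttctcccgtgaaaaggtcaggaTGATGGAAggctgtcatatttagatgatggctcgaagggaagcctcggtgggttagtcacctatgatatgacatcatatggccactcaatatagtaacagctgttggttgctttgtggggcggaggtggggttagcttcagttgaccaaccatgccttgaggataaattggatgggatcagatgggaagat
FGF21: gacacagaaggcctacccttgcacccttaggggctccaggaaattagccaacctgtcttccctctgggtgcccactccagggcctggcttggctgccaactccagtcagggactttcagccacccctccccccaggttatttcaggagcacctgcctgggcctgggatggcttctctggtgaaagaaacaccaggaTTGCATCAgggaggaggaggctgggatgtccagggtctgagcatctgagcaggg

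The regulators of the stress response upstream of ATF4 did not share a direction. Of 14, 5 were called higher and 7 lower in cis -SG, and 1 passed 2-fold, EIF2B3, a subunit of the eIF2 exchange factor, at -1.24. EIF2S1, the eIF2 subunit that is phosphorylated, was higher (0.80), and the kinases EIF2AK2 (-0.90) and EIF2AK1 (-0.57) were lower. Among the 20 cytosolic aminoacyl-tRNA synthetases 10 were called higher and 6 lower, none at 2-fold, and the seryl-tRNA synthetase SARS1 was 409 to 422 CPM in wt -SG and 272 CPM in each cis -SG library (-0.56). Cytosolic ribosomal proteins were mostly a little higher, 38 of 53 called higher and 8 lower, with a median of 0.31 (0.14 in complete medium). RPL30 (1.11), RPL8 (0.79) and RPS20 (0.76) led the list, and all of these genes lie on chromosome 8.

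Chaperones of the endoplasmic reticulum split. HSPA5, the main Hsp70 chaperone of that compartment, was 1212, 1228 and 1250 CPM in wt -SG and 3080, 3121 and 3017 CPM in cis -SG (1.37, SE 0.0215), and the stress sensor ERN1 (1.20) and the co-chaperone DNAJB9 (1.25) were higher with it. The lectin chaperone CALR was 1297 to 1329 CPM in wt -SG and 513 to 532 CPM in cis -SG (-1.28, SE 0.0239), and the disulfide isomerase PDIA4 (-0.996) and DNAJC3 (-1.40) were lower. In total 11 of 21 were called higher and 10 lower, whereas in complete medium 18 were higher and 2 lower. The interaction was called lower for 12 of the 21 and higher for 7, with PDIA4 at -1.25 (SE 0.0335).

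Immediate-early genes, which respond to growth factors and stress within minutes, had the highest median of the lists with at least 10 genes tested. Of 19, 13 were called higher and 3 lower, 11 and 1 of them at 2-fold or more. The median was 1.52, against 0.30 over the 17 members tested in complete medium. The interaction was called higher for 15 of the 19. JUN, an AP-1 subunit, was 0.542, 0.477 and 0.579 CPM in wt -SG and 42.9, 41.8 and 41.2 CPM in cis -SG (6.33, SE 0.112, adjusted p = 3.36e-21). In complete medium its means were 0.594 CPM in wt and 11.4 CPM in cis, and the interaction was 2.13 (SE 0.367, adjusted p = 5.57e-06). The zinc finger factor KLF4 was 0.265 to 0.450 CPM in wt -SG and 16.5 to 19.3 CPM in cis -SG (5.68), and it had at most 3 counts in every wt library of complete medium. EGR2 was 2.12 to 2.92 CPM and 41.4 to 44 CPM in the same groups (4.11). FOS, the partner of JUN in AP-1, was lower in cis -SG, with 23.3 to 27.6 CPM in wt -SG and 10.7 to 11.7 CPM in cis -SG (-1.17, SE 0.0791), as were IER2 (-0.56) and KLF6 (-0.27). The high members were thus not accompanied by FOS in this medium. Both FOS (-1.77) and IER2 (-1.04) were lower by more in complete medium, with called interactions of 0.61 and 0.50. The interaction of KLF6 was not called (0.10).

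Genes of G2 phase and mitosis were lower in the resistant cells in this medium almost throughout. Of 36, 33 were called lower and 2 higher, against the background shares of 40.3% and 40.8%, and 11 were lower by at least 2-fold, with a median of -0.81. In complete medium 22 of the same 36 were higher and 11 lower, with a median of 0.16. The interaction was called lower for 33 and higher for 1, with a median of -0.86. DLGAP5, a spindle assembly factor, was 106, 108 and 105 CPM in wt -SG and 28.8, 27.5 and 28.4 CPM in cis -SG (-1.87, SE 0.0414, adjusted p = 1.53e-19), whereas the means in complete medium were 143 and 135 CPM. Its interaction was -1.75 (SE 0.0507, adjusted p = 2.89e-26). CDK1, the kinase that drives entry into mitosis, was 240, 242 and 239 CPM in wt -SG and 74.9, 78.6 and 73.3 CPM in cis -SG (-1.62, SE 0.0334), with an interaction of -0.91 (SE 0.0437). CENPE, a kinetochore motor, was 144 to 147 CPM against 38.3 to 47.1 CPM (-1.70). The exceptions in direction were BUB3, of the spindle checkpoint (0.64), and the phosphatase CDC25B (0.65). CDC25B was higher by more in complete medium (1.33, interaction -0.66), while the interaction of BUB3 was 0.15. In bulk RNA a lower share of cells in mitosis and less of these mRNAs in each cell cannot be told apart. The study reports that resistant cells stopped proliferating without serine and glycine, whereas sensitive cells kept growing. The part of growth in the values of this and other lists was not tested.

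DNA replication genes were lower in smaller steps. Of 36, 19 were called lower and 8 higher, with a median of -0.14 and 1 gene at 2-fold or more. RFC1, the large subunit of the clamp loader, was 150 to 161 CPM in wt -SG and 68.6 to 73.2 CPM in cis -SG (-1.10, SE 0.0380), while the clamp PCNA itself was higher, at 163 to 165 CPM and 242 to 249 CPM (0.62). Among 24 G1 regulators 11 were higher and 10 lower. The CDK4 and CDK6 inhibitor CDKN2C was 26 to 27.5 CPM in wt -SG and 3.34 to 3.93 CPM in cis -SG (-2.86, interaction -1.79, SE 0.118). E2F2 (1.52) and cyclin CCNE2 (2.65) were higher, and RB1, on chromosome 13, was lower (-0.89).

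Many mitotic promoters carry a cell cycle homology region, TTTGAA, near an inverted CCAAT box, ATTGG. In the same RefSeq windows TTTGAA on either strand was found for 15 of 29 G2/M genes (51.7%) and 16.1% of all genes, and ATTGG for 26 of the 29 (89.7%) and 37% of all genes. Windows of CDK1 (chr10:60778081-60778330, plus strand) and DLGAP5 (chr14:55191586-55191835, minus strand) are printed as examples of named G2/M genes whose window holds both motifs, shown on either strand in capitals. The windows of CENPE and CDC25B hold no TTTGAA. DLGAP5 holds 2 copies of each motif and CDK1 1 of each.
CDK1: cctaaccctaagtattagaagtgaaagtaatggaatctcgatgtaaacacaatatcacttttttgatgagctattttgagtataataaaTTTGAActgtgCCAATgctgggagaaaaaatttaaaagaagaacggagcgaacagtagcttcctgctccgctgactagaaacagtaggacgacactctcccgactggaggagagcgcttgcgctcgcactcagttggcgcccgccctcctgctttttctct
DLGAP5: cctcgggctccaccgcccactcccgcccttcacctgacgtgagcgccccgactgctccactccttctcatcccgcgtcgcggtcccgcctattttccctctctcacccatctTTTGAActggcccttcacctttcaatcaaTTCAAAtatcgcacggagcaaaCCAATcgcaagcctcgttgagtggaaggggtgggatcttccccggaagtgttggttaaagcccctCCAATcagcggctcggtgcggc

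Cholesterol synthesis genes and their regulators, most of which are targets of the transcription factor SREBP2, were lower in the resistant cells, and more so without serine and glycine. In that medium 20 of 23 were called lower and 3 higher, 14 of them lower by at least 2-fold, and the median was -1.12. In complete medium 16 were lower and 4 higher, 1 lower by at least 2-fold, with a median of -0.26. The interaction was called lower for 19 of the 23 and higher for 1. INSIG1, the sterol-responsive anchor of the SREBP complex and itself a target of it, was 93.7, 98.5 and 99.6 CPM in wt -SG and 19.6, 20.1 and 19.2 CPM in cis -SG (-2.26, SE 0.0466, adjusted p = 4.45e-20), with means of 139 and 103 CPM in complete medium and an interaction of -1.79 (SE 0.0546, adjusted p = 1.32e-25). The enzymes MVD (-2.18) and IDI1 (-2.04) of the isoprenoid steps were lower too. Those that were higher were SC5D (0.65), STARD4 (0.13) and SQLE (0.09), and the calls of SQLE and STARD4 were lost under some alternatives. The sterol regulatory element TCACNCCAC was found in the promoter window of 1 of 18 of these genes and in 1.09% of all genes, while ATTGG was in 14 of the 18 (77.8%).

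Fatty acid genes showed a like split, 11 of 15 lower and 4 higher. The median was -0.36 (0.16 over the 14 tested in complete medium), and the interaction was called lower for 11. FADS2, the delta-6 desaturase, had the widest gap, 482, 479 and 465 CPM in wt -SG and 11.7, 12.4 and 12.1 CPM in cis -SG (-5.25, SE 0.0389), and it was low in cis cells of complete medium too (-4.70, interaction -0.54). FADS1, on the opposite strand with overlapping exons, was lower (-1.21) and FADS3 higher (1.17). Among 18 genes of sphingolipid and phosphatidylserine synthesis, both of which use serine, 11 were higher and 3 lower. SPTLC2, a subunit of the enzyme that joins serine to palmitoyl-CoA, was 33 to 38.6 CPM in wt -SG and 76.7 to 82.8 CPM in cis -SG (1.17), and sphingomyelin synthase SGMS2 was higher (2.54). UGCG, which makes glucosylceramide, was lower (-2.31), against the direction of SPTLC2 and SGMS2.

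**Figure D3:**
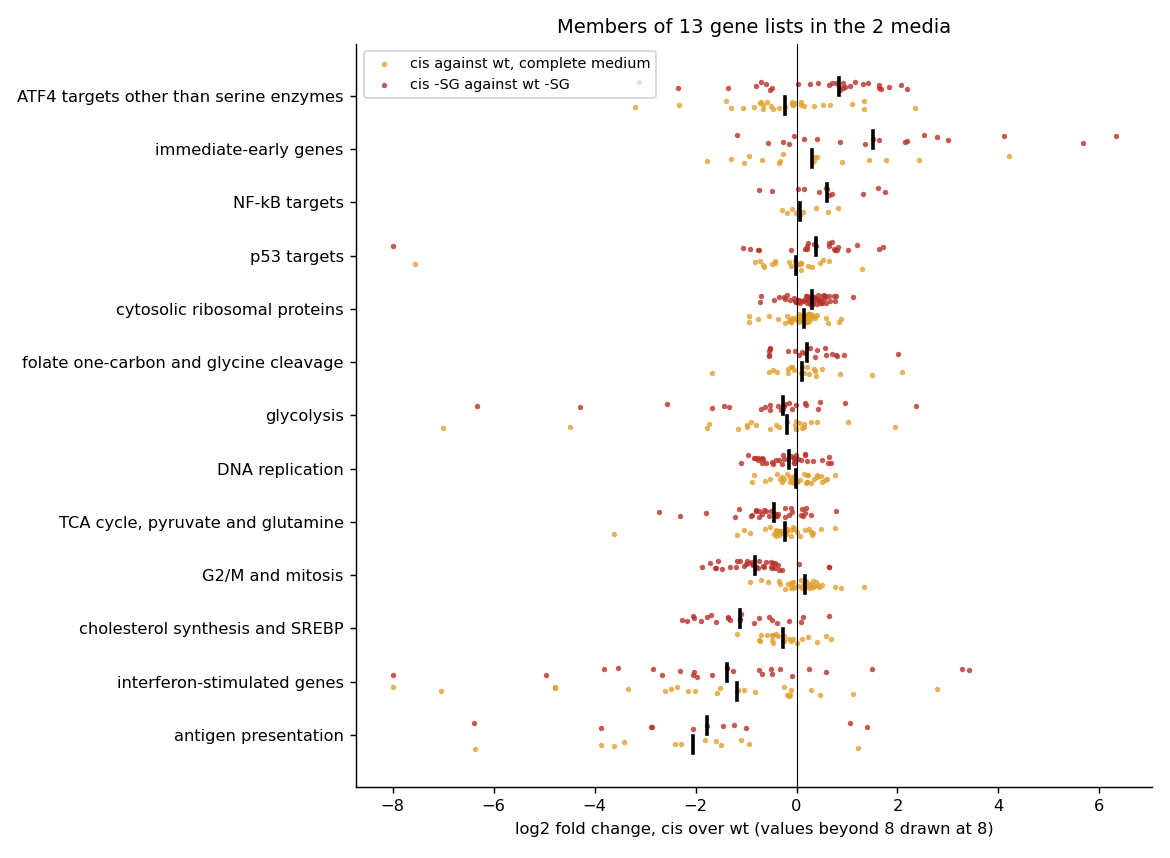
Log2 fold changes of the members of 13 gene lists, 1 point per gene, in complete medium (orange) and without serine and glycine (red), with black bars at the medians and values beyond 8 drawn at 8. The medians of G2/M and cholesterol genes lie below 0 without serine and glycine (-0.81 and -1.12) and those of ATF4 targets and immediate-early genes above it (0.84 and 1.52), whereas antigen presentation is low in both media.

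Folate and glycine genes, which serve the one-carbon supply, did not share a direction, with 11 of 21 called higher and 5 lower. Both serine hydroxymethyltransferases, which split serine into glycine and a one-carbon unit, were lower in cis -SG. SHMT2, the mitochondrial form, was 338 to 352 CPM in wt -SG and 224 to 234 CPM in cis -SG (-0.55, SE 0.0284), while in complete medium it was slightly higher in cis (0.15), giving an interaction of -0.69 (SE 0.0362). SHMT1, the cytosolic form, was -0.55 as well, with an interaction of -0.75. GLDC, which breaks glycine down in the glycine cleavage system, was 19.4 to 20.1 CPM in wt -SG and 75.6 to 78.2 CPM in cis -SG (2.01, SE 0.0469), and 2.08 in complete medium, without a called interaction (-0.06, adjusted p = 0.512). In the methionine cycle 9 of 15 were higher and 3 lower. AHCY, which clears S-adenosylhomocysteine, was 356 to 364 CPM and 1027 to 1086 CPM (1.60), CTH, the last enzyme of cysteine synthesis from methionine, was 15.5 to 16.4 CPM and 36.7 to 40.7 CPM (1.31), and MAT2A, which makes S-adenosylmethionine, was higher too (1.25, SE 0.104). Nucleotide synthesis genes were 14 of 24 higher and 9 lower, among them PRPS2, of the sugar phosphate donor of purines (2.05), and IMPDH1, of guanine nucleotides (1.32). The ribonucleotide reductase subunits parted, with the S-phase catalytic subunit RRM1 lower (-0.74) and the p53-inducible RRM2B higher (1.24).

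Central carbon genes were lower on the whole. In the list of the TCA cycle, pyruvate and glutamine, 25 of 32 were called lower and 7 higher, with a median of -0.45 (-0.22 in complete medium), and the interaction was lower for 21 and higher for 3. Pyruvate carboxylase, PC, was 25.8, 27.2 and 28 CPM in wt -SG and 5.00, 5.48 and 5.28 CPM in cis -SG (-2.31, SE 0.0816), with an interaction of -1.88 (SE 0.125). The glutamine synthetase GLUL (-2.72) and the succinyl-CoA ligase subunit SUCLA2, on chromosome 13 (-1.79), were lower, and IDH3A, of the TCA cycle, was higher (0.79). Of 25 glycolysis genes 18 were lower and 6 higher, such as ALDOC at -1.68 and the bifunctional PFKFB4 at -2.57. PFKP, the platelet form of phosphofructokinase, was the exception at 2-fold, with 41.4 to 44 CPM in wt -SG and 212 to 219 CPM in cis -SG (2.37). SLC16A3, a lactate exporter, was 13.3 to 14.3 CPM and 0.561 to 0.731 CPM (-4.29). Of the 13 respiratory chain genes of the mitochondrial genome 1 was higher, MT-ND2, and 1 lower, MT-ND3, and both calls were lost under some alternatives. MT-ND2 ran from 1354 to 2263 CPM in the wt -SG libraries alone.

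Genes that make or use NAD held some of the widest gaps in the metabolic lists. Of 28, 15 were called higher and 11 lower, 8 and 3 at 2-fold or more. NMNAT2, a cytosolic enzyme of the last step of NAD synthesis, was 3.10, 3.02 and 2.57 CPM in wt -SG and 66.6, 65 and 65.6 CPM in cis -SG (4.53, SE 0.0721, adjusted p = 5.96e-22). In complete medium it did not pass the test (0.04, adjusted p = 0.81), with means of 3.71 and 3.87 CPM, and the interaction was 4.50 (SE 0.171). QPRT, of the route from tryptophan, was 95.8 to 101 CPM in wt -SG and 0.305 to 0.418 CPM in cis -SG (-8.03, SE 0.0952). NMRK1, a nicotinamide riboside kinase, was higher (1.83). Among users of NAD, the deacetylase SIRT1 was 102 to 109 CPM in wt -SG and 311 to 323 CPM in cis -SG (1.65) and SIRT2 was lower (-1.17). GPD2, the mitochondrial glycerol phosphate dehydrogenase, was 87.9 to 95 CPM and 23.1 to 25 CPM (-1.90).

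Among NRF2 targets and glutathione genes 8 of 24 were higher and 11 lower, so the list did not move one way. HMOX1, which degrades heme, was 31.9, 30.9 and 30.3 CPM in wt -SG and 301, 310 and 307 CPM in cis -SG (3.35, SE 0.0359, adjusted p = 1.06e-24). The gap was much narrower in complete medium, at 29.6 and 45.5 CPM, and the interaction was 2.76 (SE 0.0579, adjusted p = 1.21e-30). OSGIN1 was higher by 3.79, without a called interaction (-0.30). The malic enzyme ME1 was 44.1 to 45.7 CPM in wt -SG and had no count in the 3 cis -SG libraries, at least 293-fold lower against a floor of 3 counts per library. GSTM2 (-3.43) and GSTM4 (-1.50) were lower, and near-identical copies in that family make their counts less certain. Of 10 metallothioneins 2 were tested and both were higher, with MT2A at 1.03, 1.59 and 1.61 CPM in wt -SG and 20.6, 22.4 and 21.5 CPM in cis -SG (3.99, SE 0.124) and an interaction of 3.20 (SE 0.209). MT2A belongs to a family with close copies too.

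The p53 targets were 17 of 23 higher and 6 lower, with a median of 0.38 (-0.02 in complete medium), and the interaction was higher for 14 and lower for 4. GDF15, a secreted stress cytokine that is in the ATF4 list too, was 63.7, 83.1 and 81.9 CPM in wt -SG and 226, 232 and 226 CPM in cis -SG (1.63, SE 0.108). Its means were 45.6 and 45.7 CPM in complete medium. The death receptors FAS (1.72) and EDA2R (1.20) were higher. TP53INP1, a pro-apoptotic and autophagy factor, was 46.1 to 50.5 CPM against 0.104 to 0.254 CPM (-8.02, SE 0.144), and the damage sensor DDB2 was 72.9 to 79.9 CPM against 34.5 to 36 CPM (-1.07), with an interaction of -1.12 (SE 0.0600). The list holds both death receptors that were higher and a death factor that was nearly absent.

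In the BCL2 family, which governs mitochondrial apoptosis, 9 of 14 were higher and 4 lower. The genes with the widest gaps were BH3-only members, which promote apoptosis. PMAIP1 (NOXA) was 0.985, 1.33 and 1.09 CPM in wt -SG and 47.2, 43.9 and 46.5 CPM in cis -SG (5.38, SE 0.100, adjusted p = 8.22e-21), with an interaction of 1.97 (SE 0.234). HRK was 3.47 to 3.84 CPM and 17.7 to 19.1 CPM (2.37), with means of 1.23 and 1.43 CPM in complete medium and an interaction of 2.19 (SE 0.272). BCL2L11 (BIM) was 3.34 to 4.05 CPM and 16.8 to 18.2 CPM (2.31). Other pro-apoptotic members were lower, BMF at -1.20, BAD at -1.18 and the pore former BAX at -0.77.

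Genes of drug and copper transport and of DNA repair were mixed. Among 13 tested transport genes, which include general drug pumps as well as copper transporters, 6 were higher and 6 lower. The efflux pump ABCG2 was 0.848 to 1.09 CPM in wt -SG and 9.63 to 10.7 CPM in cis -SG (3.39, SE 0.149), the multidrug and toxin extruder SLC47A1 was higher (1.23), and the importer SLC31A1 (CTR1) slightly so (0.36). The copper exporter ATP7B, on chromosome 13, was 34 to 39.7 CPM against 14 to 15.1 CPM (-1.28). In Fanconi anemia and homologous recombination genes 14 of 27 were lower and 10 higher, and the interaction was lower for 14 and higher for 4. FANCM, a translocase at stalled forks, was 22.6 to 23.6 CPM against 10.2 to 11.6 CPM (-1.01, interaction -1.15, SE 0.0962), and RAD51D was higher (1.22). In nucleotide excision and mismatch repair, ERCC1, of the nuclease that cuts out platinum adducts, was 89.7 to 93.3 CPM in wt -SG and 165 to 173 CPM in cis -SG (0.92, SE 0.0343). It was slightly lower in cis in complete medium (-0.15), and its interaction was 1.09 (SE 0.0488). MSH6, of mismatch recognition, was 263 to 274 CPM against 97.2 to 100 CPM (-1.41).

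Most genes of antigen presentation were lower in the resistant cells in both media. Of 11 genes 9 were lower and 2 higher, all 11 by at least 2-fold. The median was -1.77 (-2.05 over the 12 tested in complete medium). B2M, the light chain of MHC class I, was 797, 805 and 803 CPM in wt -SG and 105, 107 and 106 CPM in cis -SG (-2.88, SE 0.0263, adjusted p = 8.96e-26). NLRC5, the class I transactivator, was 74.3 to 82.9 CPM and 5.15 to 5.38 CPM (-3.86), with no called interaction (0.01, adjusted p = 0.966), and the immunoproteasome subunit PSMB9 was -6.39. Interferon-stimulated genes were 17 of 25 lower and 5 higher, 14 of them lower by at least 2-fold. The tetherin gene BST2 was 236, 241 and 246 CPM in wt -SG and had no count in cis -SG, at least 1565-fold lower. OAS2 (-4.96) and XAF1 (-3.53) were lower, while the ISG15 ligase HERC5 was 4.09 to 4.70 CPM and 44.3 to 45.5 CPM (3.42). OASL, higher by 3.28, had an interaction of 2.17 (SE 0.402). NF-kB targets were 7 of 12 higher and 2 lower, among them TNFAIP3, which curbs the pathway (1.62, interaction 1.82, SE 0.291), and BIRC3 (1.76).

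Several genes of cell identity were near 0 in 1 of the lines. Of 6 lineage factors tested, 2 were higher and 4 lower (1 and 3 at 2-fold or more), and of 16 epithelial and mesenchymal markers 5 were higher and 10 lower (5 and 9). In 4 of these 6 factors and 1 of the 16 markers, 1 line had at most 3 counts in every library. They passed the count filter only through the other line, so their direction was fixed by the filter. The renal and Mullerian factor PAX2 was 180 to 206 CPM in wt -SG and at most 3 counts per library in cis -SG, at least 1264-fold lower. FOXL2, of granulosa cells, was at least 127-fold lower and HOXD10 at least 66.9-fold lower, the latter with exons that overlap HOXD11. The mesenchymal factor TWIST1 was 154 to 175 CPM against 0.470 to 0.561 CPM (-8.27), and SNAI2 (-1.56) and SPARC (-2.75) were lower. SNAI1, another repressor of epithelial genes, was higher, at 0.901 to 1.09 CPM and 8.53 to 8.97 CPM (3.16), as was the epithelial keratin KRT18, at 0.345 to 0.515 CPM and 40.3 to 42.2 CPM (6.65).

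Of 16 collagens tested, 7 were higher and 8 lower, 4 and 5 of them by at least 2-fold. In 3 of the 16, 1 line had at most 3 counts in every library, so the count filter fixed their direction. COL6A3 was 614, 719 and 608 CPM in wt -SG and 0.255, 0.313 and 0.152 CPM in cis -SG (-11.32, SE 0.174), and COL1A2 was 414 to 428 CPM against 1 count per library, at least 2733-fold lower. COL11A1 was 28.1, 26.2 and 27.7 CPM in wt -SG and 1167, 1165 and 1122 CPM in cis -SG (5.44, SE 0.0337), and COL12A1 was 11.6 to 14.2 CPM and 912 to 1038 CPM (6.31). INHBA, which encodes the activin A subunit, had no count in wt -SG and 239, 241 and 236 CPM in cis -SG, at least 1434-fold higher, and BMP2 was at least 49.6-fold higher. TGFB2 was lower (-4.87), and LTBP1, which stores latent TGF-beta in the matrix, was 8.94 to 12.4 CPM against 57.6 to 62 CPM (2.55), with an interaction of 1.80 (SE 0.109). In the Wnt pathway 13 of 26 were higher and 13 lower. LGR4, the R-spondin receptor, was 290 to 305 CPM and 7.19 to 7.98 CPM (-5.23), with an interaction of -1.59, and the receptor TNFRSF19 was 42 to 43.8 CPM and 321 to 330 CPM (2.98).

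The genes with the widest gaps overall were silent in 1 line. A gene with at most 3 counts in every library of 1 group passed the count filter only through the other group. Its direction was therefore fixed by the filter. Of 14939 genes tested, 392 called ones had at most 3 counts in every cis -SG library and were lower there. In the same way 387 had at most 3 counts in every wt -SG library and were higher in cis -SG. Lower in this way were, beside BST2, the long noncoding DLX6-AS1 (at least 4278-fold), ARHGAP28 (at least 3092-fold), OTOA (at least 1841-fold), the G protein regulator RGS1 (at least 957-fold), CNNM1 (at least 736-fold), CARD16 (at least 589-fold) and the nuclear receptor ESRRG (at least 395-fold). ASS1, which makes argininosuccinate on the way to arginine, was 46.2 to 49 CPM in wt -SG and had no count in cis -SG, at least 311-fold lower. In the other direction stood, beside INHBA, the RNA-binding KHDRBS3 (at least 1112-fold higher), the glycosyltransferase GALNT14 (at least 463-fold), the fatty acid receptor CD36 (at least 436-fold), the prostaglandin receptor PTGER3 (at least 381-fold), NFATC1 (at least 379-fold), PMEPA1 (at least 231-fold) and PDLIM1 (at least 212-fold). TDO2, the liver enzyme that opens the tryptophan ring, was 29.2, 30.03 and 32.6 CPM in cis -SG without a count in wt -SG, at least 184-fold higher, and the homeobox gene BARX2 was at least 133-fold higher.

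Some genes had a gap between the lines that depended strongly on the medium, and 8 of them are plotted by library. PITPNM3, of the PITPNM protein family, was 1.92, 0.901 and 1.74 CPM in wt -SG and 48.9, 45.7 and 40.8 CPM in cis -SG. Its means in complete medium were 2.08 and 1.52 CPM. Its interaction, 5.41 (SE 0.292, adjusted p = 5.99e-17), led the genes with more than 3 counts in some library of every group. PLA2G3, a secreted phospholipase, was higher in cis in complete medium (30.8 and 54.3 CPM) and lower without serine and glycine, with 24.6, 23.2 and 21 CPM in wt -SG and 3.52, 4.65 and 4.01 CPM in cis -SG. The interaction was -3.25 (SE 0.110, adjusted p = 2.47e-24). STAC2 was 25 to 28.6 CPM and 0.731 to 0.867 CPM (-5.01), with an interaction of -3.77 (SE 0.176). EPAS1, which encodes HIF-2 alpha, was 3.65 to 4.19 CPM in wt -SG and 14.7 to 16.6 CPM in cis -SG (2.05). Its interaction was 3.45 (SE 0.355). It was lower in cis in complete medium, but with few counts in either line. The means there were 0.902 CPM in wt (at most 19 counts per library) and 0.349 CPM in cis (at most 6). HIF1A was lower in cis -SG, 304 to 325 CPM against 71.9 to 77.1 CPM (-2.04), and the hypoxia list was 7 higher and 7 lower of 17. The arrestin family member ARRDC4, a target of the glucose-sensing factor MondoA, had at most 3 counts per library in wt -SG and 19.2 to 20.9 CPM in cis -SG, at least 120-fold higher. In the MYC network MYC was 256 to 283 CPM and 471 to 477 CPM (0.86), and MYCL was 8.42 to 8.64 CPM and 57.1 to 60.7 CPM (2.83, interaction 1.21, SE 0.110). Autophagy genes were 11 higher and 10 lower of 27, with the cargo receptor SQSTM1 (1.09) and MAP1LC3B (1.06) higher and the lysosomal regulator TFEB lower (-1.82).

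**Figure D4:**
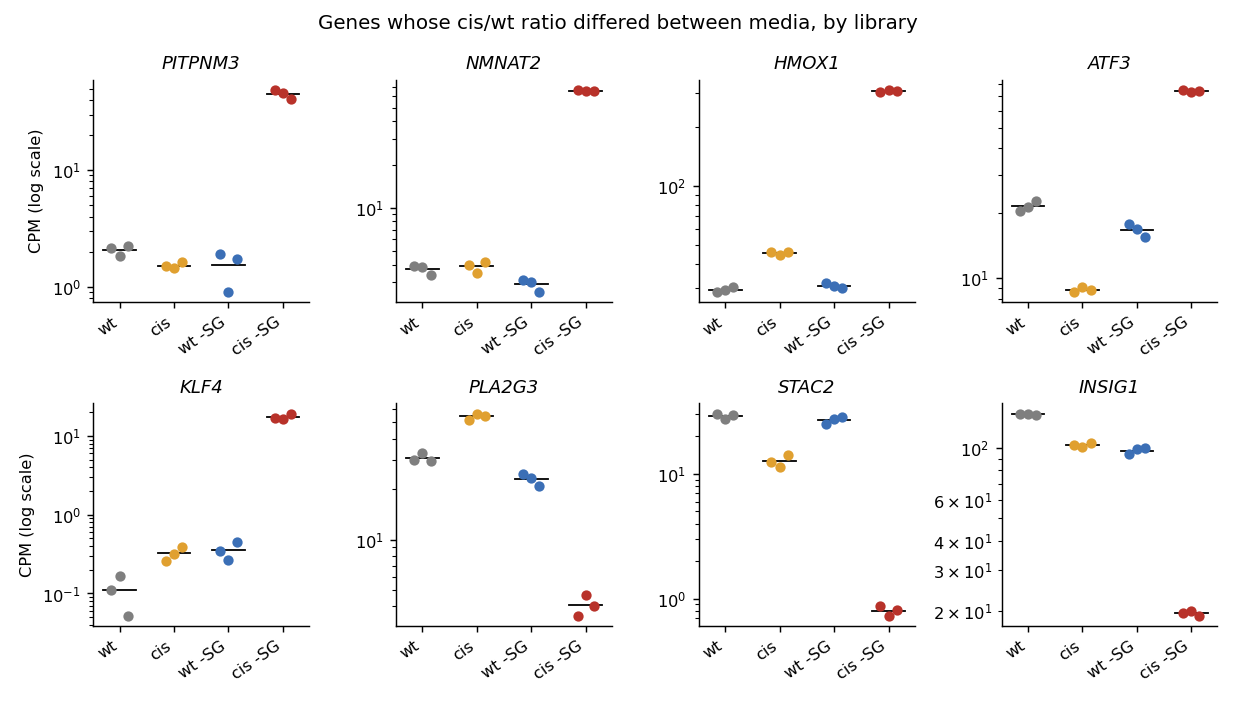
CPM on a log axis of PITPNM3, NMNAT2, HMOX1, ATF3, KLF4, PLA2G3, STAC2 and INSIG1 in the 3 libraries of wt, cis, wt -SG and cis -SG (points, with zeros drawn at 0.02), with the mean of each group as a line. The first 5 genes have their highest level in cis -SG, and PLA2G3, STAC2 and INSIG1 have their lowest level there.

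The difference between the lines also followed chromosome position. Among protein-coding genes with a mean of at least 50 counts, 181 were tested on chromosome 13, of which 161 had a log2 fold change below 0 without serine and glycine, and 85.1% were called lower, with a median of -0.87 (-0.92 in complete medium). Bins of 10 Mb with at least 20 genes on that chromosome had medians from -0.58 to -0.89. Chromosome 8 stood on the other side, with 268 of 391 genes above 0 and a median of 0.39 (0.43 in complete medium), and its bin from 80 to 90 Mb had 21 of 22 genes above 0 and a median of 1.43. Medians of the other autosomes and X lay between -0.13 and 0.16, but a whole chromosome can hide a shifted stretch. On chromosome 20 the bin from 0 to 10 Mb had 50 of 54 genes above 0. Its median was 0.79 (0.71 in complete medium), and CDC25B, BMP2 and TRIB3 lie in it. On chromosome 1, 45 of the 51 other protein-coding genes tested within 10 Mb of PHGDH were below 0, with a median of -0.93. Positions are in GRCh37. Genes of several lists above lie in these stretches, and the part of position in the values of a list was not tested.

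**Figure D5:**
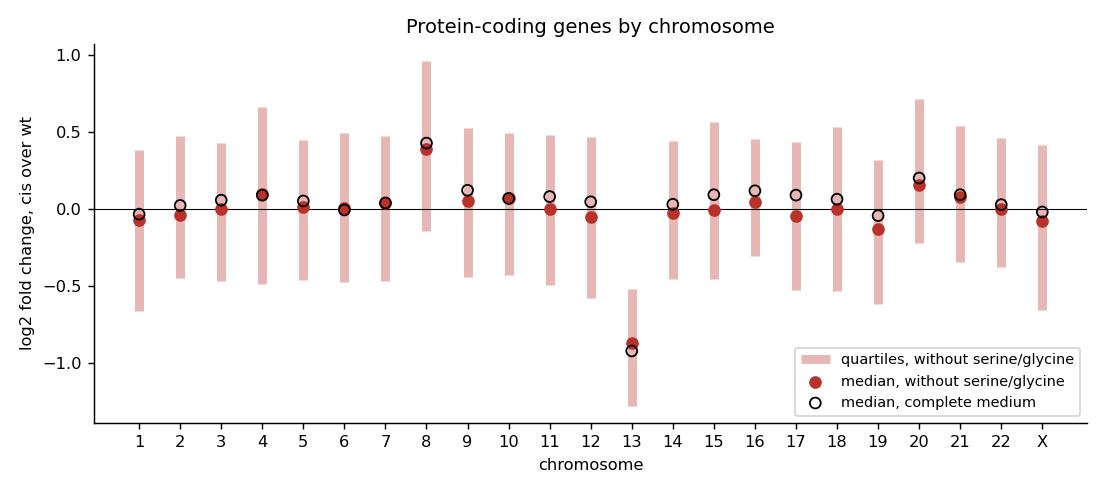
Median log2 fold change of cis over wt over the protein-coding genes of each chromosome with a mean of at least 50 counts, without serine and glycine (filled points, with bars from the lower to the upper quartile) and in complete medium (open points). Chromosome 13 lies lowest, at -0.87 and -0.92, and chromosome 8 highest, at 0.39 and 0.43.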

How the data were processed

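RNA sequencing libraries of A2780 cells were assigned to conditions from their sample labels. The authors deposited raw counts per gene: alignment to GRCh37.p13 used STAR, and HTSeq counted reads on the exons of GENCODE v19, and the strand setting of the counting is not given in the sources used here. The kit makes libraries from total RNA, and replicates were not pooled. The 3 rows that name no gene stayed out of library sizes and tests, and reads on no feature were 6.92% to 7.95% of the counts of the 6 libraries. GENCODE v44 lifted to GRCh37 gave symbols, positions and exon overlaps and matched 55538 of 57820 identifiers.

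Counts were tested with edgeR 4.0.16 in R 4.3.3 (TMM, filterByExpr, robust quasi-likelihood fit, Benjamini-Hochberg adjustment over all genes tested, threshold 0.05). The comparison of cis -SG with wt -SG used its own 6 libraries, that in complete medium its own 6, and the interaction all 12. Standard errors were the size of the log2 value over the square root of F. Where all libraries of a group had at most 3 counts, the fold was computed against 3 counts per library and is a lower bound; it covers counting error only. No pair of libraries agreed within sampling noise, so each was counted. The alternatives were DESeq2 1.42.0 (the tool the study names), its size factors, total counts, 2 other filters, one fit over 36 libraries, protein-coding genes alone and each library left out.

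The comparison, the 43 gene lists (880 symbols, 875 matched, 774 tested) and the naming rule were chosen with earlier results of these data known. Lists share some genes, such as GDF15, CTH and MAP1LC3B, which are in the ATF4 list and in another. The rule names the serine enzymes with SLC1A4, SLC1A5 and ATF4, at most 3 called genes per direction and list and every member of a list of at most 6 genes, 10 per direction over all genes, and 8 per direction for the interaction, at a mean count of 50 or more and, except for the interaction, no overlap between groups. It covers 252 genes, and 1 further gene is not reported here. Genes of the tissue marker lists are given as levels. Promoter windows are from RefSeq, 250 bases before a start, and hold 27305 genes. Python 3.11.15, pandas 2.3.3 and matplotlib 3.10.9 were used. The other 24 libraries, with carboplatin or of cis SSP cells, entered CPM scaling and 1 alternative only.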

Additional observations from a re-analysis of the deposited data

Results flagged for a closer look

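The size of the cis over wt difference depended on the medium, by the interaction term, for 8321 genes, 1805 of them at 2-fold or more. Among the named genes, 27 had an interaction of at least 2 on the log2 scale in either direction. Values above 0 mean a higher cis over wt ratio without serine and glycine.

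In 14 of these genes no group was at or below 3 counts in every library. The interaction was 5.41 for PITPNM3, 4.50 for NMNAT2, 3.51 for ATF3, 3.45 for EPAS1, 3.20 for MT2A, 2.76 for HMOX1, 2.73 for SLC16A3, 2.19 for HRK, 2.17 for OASL and 2.13 for JUN. It was below 0 for STAC2 (-3.77), PLA2G3 (-3.25), NFE2 (-3.05) and QPRT (-2.21). Each of these calls was kept when any 1 of the 12 libraries was left out.

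In the other 13 genes at least 1 group had at most 3 counts in every library, so the fitted value depends on the prior count and is no bound. In ARRDC4 (5.22), the group at that floor was wt -SG, in KLF4 (4.18) wt, and in MYO1D (5.78) and SLFN5 (6.03) both groups of wt cells. SLFN5 was not called without wt replicate 2 (5.16, adjusted p = 0.0706 by edgeR). The resistant cells in complete medium were at the floor in IL32 (5.81), HOXD9 (4.82), L3MBTL4 (4.78) and CASP4 (4.57), and CASP4 reached 7.28 without cis replicate 2. IL32 had means of 7.55 CPM in wt, 0.116 CPM in cis, 1.71 CPM in wt -SG and 1.47 CPM in cis -SG, so the gap between the lines was seen in complete medium. Without serine and glycine its log2 fold change was -0.18 (adjusted p = 0.455). UNC5C (-5.11) and DPYD (-3.13) had cis -SG at the floor, and DPYD reached -5.76 without cis -SG replicate 1. LINC02485 (-3.83) had wt at the floor and reached -6.50 without wt replicate 1. ST3GAL1 (-3.99) and ARHGAP20 (-3.89) had both wt groups at the floor and were called in 8 of the 12 fits that leave out a library. ST3GAL1 fell to -0.84 without wt -SG replicate 3 and ARHGAP20 to -2.74 without wt -SG replicate 1, and neither was then called.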

How the results depend on the processing

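Of 77 counts of called genes recomputed under the alternatives, 74 stayed within 1.5 times their value. With at least 10 counts required in every library, the genes differing by at least 2-fold fell to 2758 without serine and glycine and to 958 for the interaction, as fewer genes were tested. In one fit over the 36 libraries the interaction was called for 4880 genes in place of 8321, and the cause was not tested. With 1 library left out, 11884 to 12137 genes were called without serine and glycine (4814 to 4848 at 2-fold or more) and 7894 to 8196 for the interaction (1738 to 1849). The median over all genes moved by less than 0.1 under each scaling.

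For 247 named genes 3159 fold changes were recomputed, and 0 changed sign. Of these, 25 lost their call, in ATF4, CERS4, EIF4EBP1, MT-ND2, MT-ND3, REL, SLC1A5, SQLE and STARD4. A single library decided the call for CERS4 (without cis -SG replicate 1), SQLE (wt -SG 1 or cis -SG 2), MT-ND2 (wt -SG 3, cis -SG 2 or 3) and MT-ND3 (any but wt -SG 2). Of 533 list medians recomputed over 41 lists, 118 moved by more than the spread between libraries, with 8 of 13 settings for antigen presentation (-1.93 to -1.61), the MYC network (0.58 to 0.74), G1 regulators (-0.07 to 0.18) and fibroblast markers (-5.13 to -3.84) and 7 for p53 targets (0.34 to 0.52). The medians of 7 lists changed sign under some alternative: G1 regulators, lineage factors, Wnt, autophagy, collagens, mitochondrially encoded genes and epithelial markers. No paired analysis was possible because the labels give no replicate numbers within a condition.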

Other observations

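The hypoxia list held wide gaps on both sides. The interaction was called higher for 9 of 18 and lower for 3. NDRG1, a stress-responsive growth regulator on chromosome 8, was 0.0985, 0.477 and 0.772 CPM in the wt -SG libraries and 19.1, 21.3 and 18.4 CPM in cis -SG, a log2 fold change of 5.56 (SE 0.216). The carbonic anhydrase CA12 was 31.3 to 33.5 CPM and 99.1 to 104 CPM (1.68), with no called interaction. The peptide hormone ADM was 31.3 to 34 CPM in wt -SG and 5.75 to 6.73 CPM in cis -SG (-2.34), and it was still lower in cis in complete medium (-3.48).

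Among lysosomal and autophagy genes the protease CTSL was 23.7 to 27.7 CPM in wt -SG and 114 to 117 CPM in cis -SG (2.19, SE 0.0476), while the cholesterol carrier NPC2 was 48.5 to 51.5 CPM and 16.9 to 18.8 CPM (-1.43). GABARAPL1, an autophagosome protein, was 37.9 to 42 CPM against 12.6 to 15.5 CPM (-1.52), with a wider gap in complete medium (-2.52).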
